A study of Mus musculus with 16 samples.

Results

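Immunoglobulin variable segments transcribed in mouse bone marrow were compared between wild-type (WT) mice and mice labelled KLF K74R, where K74R is a change of a lysine to an arginine and no number of the KLF gene is given. Segments were taken by name and by level: a row belonged when its symbol began with Ighv (heavy chain) or Igkv (kappa light chain), its annotation was not that of a pseudogene, and its counts summed to at least 30 over the 6 bone marrow libraries. This left 161 segments, 85 Ighv and 76 Igkv, out of 55536 genes in the count table. The level used to choose them is the sum over both genotypes, so it did not use the difference between them. Of 345 annotated rows with such names, 130 were pseudogenes and 54 of the other 215 stayed below the minimum, 9 of them with a count of 0. The weakest segments inside the minimum were Ighv1-43 with 30 counts, Igkv4-62 with 32 and Ighv1-23 with 34, and the strongest outside it were Igkv8-16 with 28, Igkv4-51 with 26 and Igkv4-69 with 26.

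The series holds 16 RNA-seq libraries from 3 sources: bone marrow and tumors grown from MC38, a mouse colon carcinoma cell line, with 3 WT and 3 K74R libraries each, and samples labelled MSC, with 2 and 2. The mutant libraries carry KO in their titles and K74R in their genotype field. The labels give no age, sex, strain, zygosity or treatment and do not say that replicates were separate mice, so p-values measure the spread between these libraries only. Total counts ran from 14067259 to 15858275 in bone marrow and from 15923437 to 18923751 in tumors. Cd79a, a signaling subunit of the B cell receptor, was read in all 6 bone marrow libraries, at 57.6 to 114.1 CPM in WT and 116 to 162 in K74R, where CPM is the count scaled to a fixed total per library.

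A B cell makes its antibody by cutting and joining DNA. For the heavy chain it joins a V, a D and a J segment, and later for the light chain a V and a J segment, so that each cell and its descendants transcribe mainly the rearranged V segment of their own. Segments are grouped into families by sequence, shown by the number before the hyphen in their names. The number after it runs roughly with distance from the J side, over the whole locus for kappa and within each family for the heavy chain. In whole marrow a segment's level therefore reflects which cells use it, how many there are, and how much antibody RNA each one holds. Fewer cells of a type and less RNA per cell cannot be told apart in such bulk samples.

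The 85 heavy chain segments lie on GRCm38 chromosome 12 between positions 113578504 and 116000461, and the 76 kappa segments on chromosome 6 between 67609713 and 70704177. Copies within a family resemble each other closely. Annotated transcripts in GENCODE M21 were compared with the shorter placed inside the longer, and a pseudogene of the locus could be the nearest copy. By this measure, 85 of the 161 segments had another segment with at least 95% identity, against 21 of the 54 segments below the count minimum, and none had an identical copy. The median identity to the nearest copy was 95.4% in the first set and 91.9% in the second. The sources used here do not say how reads that fit several copies were counted, so the value of any single segment is uncertain to that degree.

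The stretches below show 12 segments that the results turn on: 6 that differed between the genotypes in bone marrow and 6 that led their locus in at least 1 library. Each is taken from the spliced transcript of GENCODE M21 on GRCm38, 5′ to 3′ in the coding direction, and capitals mark TANTNNTGN. This pattern was searched to find the tyrosine codon, a codon starting with T and the cysteine codon at the end of the third framework region of a V domain, and its free bases also allow other codons. In each window 45 bases precede the capitals and up to 25 follow, where the germline part of the third hypervariable loop (CDR3), which contacts antigen, begins. The motif was searched on the coding strand and stood within 30 bases of the transcript's end in 159 of the 161 segments and in 46 of the 54 below the minimum. The annotated transcript of Ighv3-8 runs on past that distance, whereas those of the other Ighv3 segments end 8 bases after the capitals, so most of its printed tail has no counterpart in them.
Igkv4-59: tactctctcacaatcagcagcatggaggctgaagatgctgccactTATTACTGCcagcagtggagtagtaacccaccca
Igkv4-57-1: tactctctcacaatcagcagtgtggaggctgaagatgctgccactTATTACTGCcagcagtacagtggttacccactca
Igkv4-57: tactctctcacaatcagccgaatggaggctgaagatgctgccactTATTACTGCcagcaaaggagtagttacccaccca
Ighv1-80: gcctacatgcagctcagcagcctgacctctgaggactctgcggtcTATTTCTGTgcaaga
Ighv13-2: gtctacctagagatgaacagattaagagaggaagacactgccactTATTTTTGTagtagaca
Ighv7-1: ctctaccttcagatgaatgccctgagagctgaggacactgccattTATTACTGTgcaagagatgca
Ighv1-26: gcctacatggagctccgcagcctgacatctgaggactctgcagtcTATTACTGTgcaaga
Ighv3-6: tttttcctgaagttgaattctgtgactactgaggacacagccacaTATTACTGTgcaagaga
Ighv3-8: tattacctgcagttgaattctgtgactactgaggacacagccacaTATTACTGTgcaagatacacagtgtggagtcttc
Igkv10-96: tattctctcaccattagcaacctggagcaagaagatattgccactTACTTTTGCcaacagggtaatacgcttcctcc
Igkv1-88: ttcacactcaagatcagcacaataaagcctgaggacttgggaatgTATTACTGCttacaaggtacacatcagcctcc
Igkv17-127: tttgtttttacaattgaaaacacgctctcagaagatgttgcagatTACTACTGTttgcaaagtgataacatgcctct

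The summed level of each locus was higher in K74R than in WT marrow, with no overlap. Heavy chain segments together held 199, 199.9 and 199 CPM in WT against 231, 299.8 and 277 in K74R, a ratio of the means of 1.35. Kappa segments together held 201, 226 and 214 CPM in WT against 248, 320.1 and 277 in K74R, a ratio of 1.32. The 161 segments held 0.0392% to 0.0436% of all counts in WT libraries and 0.0475% to 0.0620% in K74R libraries. No p-value is given for a sum over chosen genes. Constant genes went both ways. Ighm, the constant region of IgM, was at 609.6, 878 and 469 CPM in WT against 919.8, 1157 and 1218 in K74R (adjusted p = 0.130). Igkc, the kappa constant region, was at 326, 362 and 359.9 CPM against 419.6, 550.4 and 475 (adjusted p = 0.0891). Of the IgG constant genes, Ighg1 fell, and Ighg2b (log2 fold change -0.31, adjusted p = 0.325), Ighg2c (-0.50, 0.309) and Ighg3 (-0.08, 0.908) did not pass and overlapped between the genotypes.

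Of the 161 segments, 141 passed the filter on low counts and were tested, with edgeR's quasi-likelihood test over 14872 genes and Benjamini-Hochberg adjustment. Their median log2 fold change (K74R over WT) was 0.48 and 99 of the 141 were above 0, while the median over all tested genes was -0.00052 and 49.9% were above 0. At an adjusted p under 0.05, 6 segments passed, 4.26% of those tested, against 0.773% of all genes. Of these 4 rose (0.511% of all genes did) and 2 fell (0.262% did). At an unadjusted p under 0.05 there were 57, against 17.8% of all genes: 43 were higher and 14 lower, where 9.8% and 7.99% of all genes were. DESeq2 called 22 of the 141, against 3.58% of all genes. K74R libraries all lay above WT libraries for 36 segments (25.5%, against 11.8% of all genes) and all below for 12 (8.51%, against 11.1%). The tested segments are not all segments, since the 20 left out were thinly read (30 to 130 counts over the 6 libraries) or read mainly in 1 library. A segment low in either genotype could pass this filter through the other.

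**Figure D1:**
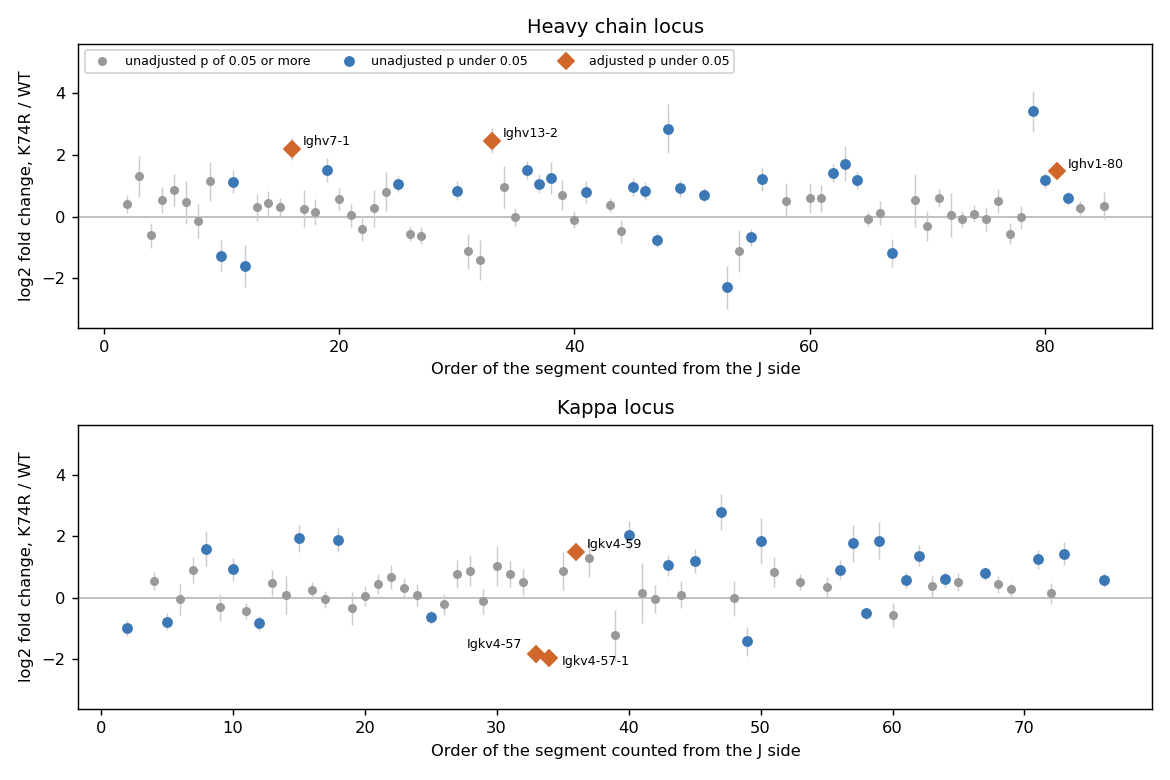
Log2 fold change (K74R over WT, bone marrow) of the 75 tested heavy chain segments (upper panel) and 66 tested kappa segments (lower panel), in their order along the locus counted from the J side, with bars of 1 standard error. Diamonds mark the 6 segments with an adjusted p under 0.05, which for kappa lie on both sides of 0.

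Among heavy chain segments 3 rose. Ighv1-80 (chr12:115912344-115912776), of the large Ighv1 family, was at 3.99, 3.20 and 4.34 CPM in WT against 9.23, 10.7 and 12.2 in K74R, a log2 fold change of 1.48 ± 0.19 (SE, adjusted p = 0.0130). Ighv13-2 (chr12:114357759-114358218), the only member of its family here, was at 0.580, 0.627 and 0.294 CPM in WT against 1.98, 3.69 and 2.87 in K74R, a log2 fold change of 2.47 ± 0.39 (adjusted p = 0.0329). Ighv7-1 (chr12:113896408-113896946) was at 0.580, 0.627 and 1.47 CPM in WT against 4.15, 3.96 and 4.03 in K74R, a log2 fold change of 2.19 ± 0.36 (adjusted p = 0.0342). The genotypes did not overlap for any of the 3, and within K74R the values of Ighv7-1 lay close together. In WT, Ighv13-2 and Ighv7-1 were thinly read. They passed the filter on low counts through their K74R libraries, where they were high, which limits these calls. No heavy chain segment fell.

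The kappa segments that passed were 3 closely placed members of the Igkv4 family, and they went in opposite directions. Igkv4-59 (chr6:69438218-69438757) rose from 2.83, 3.64 and 3.02 CPM in WT to 9.56, 9.05 and 8.26 in K74R, a log2 fold change of 1.498 ± 0.18 (adjusted p = 0.0110). Igkv4-57-1 (chr6:69544359-69544907), which starts 106141 bases nearer to J, fell from 4.19, 4.89 and 5.23 CPM to 1.12, 1.27 and 1.30, a log2 fold change of -1.95 ± 0.24 (adjusted p = 0.0110). Igkv4-57 (chr6:69575975-69576500), a further 31616 bases on, fell from 4.45, 6.21 and 7.44 CPM to 1.25, 1.68 and 2.18, a log2 fold change of -1.82 ± 0.29 (adjusted p = 0.0334). In each case all libraries of one genotype lay above all of the other. Igkv4-58, which lies between Igkv4-59 and Igkv4-57-1, did not pass (log2 fold change 0.88 ± 0.62, adjusted p = 0.487).

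These 3 kappa segments are alike in sequence, as the windows printed above show, but each has a closer copy elsewhere in the family: Igkv4-70 for Igkv4-59 (96.5% identity), Igkv4-55 for Igkv4-57 (94.9%) and Igkv4-78 for Igkv4-57-1 (93.3%). Igkv4-59 and Igkv4-57 share 94.6% of the shorter transcript, and within the 79 printed bases, counted from 1 at the 5′ end, they differ by A19C, C21A, G60A, T61A and A70T (the base of Igkv4-59 first). Igkv4-57-1 differs from Igkv4-57 at 9 of the 79 bases, with 89.5% identity over the shorter transcript, and from Igkv4-59 at 7. Added together, the 3 were at 11.5, 14.7 and 15.7 CPM in WT against 11.9, 12.0 and 11.7 in K74R, and this sum overlapped between the genotypes. The sum was formed after the single values were seen, and whether reads were divided between these and other copies alike in the 2 genotypes was not tested.

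**Figure D2:**
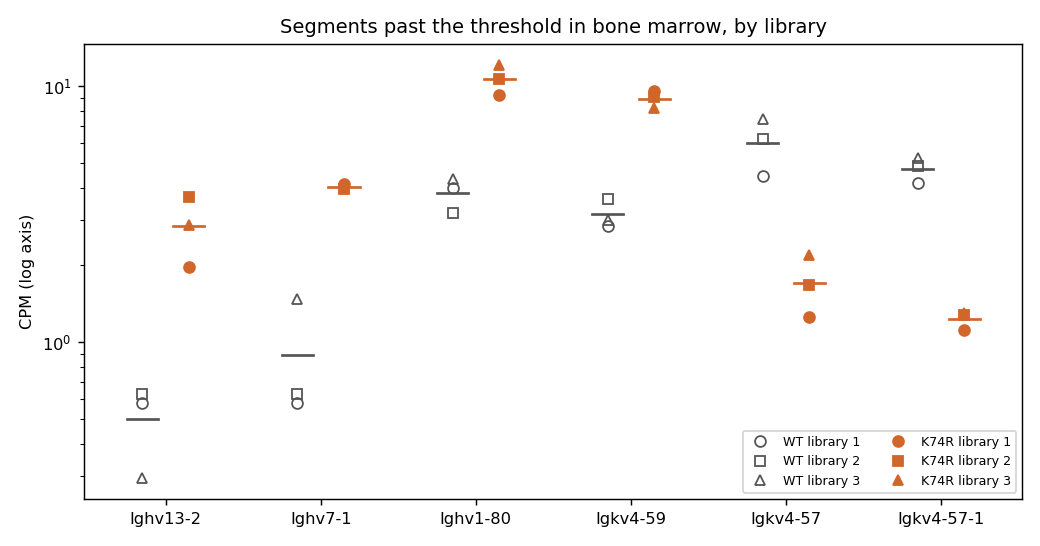
CPM on a log axis of the 6 segments that passed an adjusted p of 0.05 in bone marrow, by library (open gray, WT; filled orange, K74R; horizontal bars, means of 3). Igkv4-59 and the heavy chain segments are higher in all 3 K74R libraries, and Igkv4-57 and Igkv4-57-1 lower in all 3.

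The calls rested on single libraries and on the fit. Without K74R library 2, and likewise without K74R library 3, no segment passed (0.105% and 0.138% of all genes did), and the adjusted p of the 6 then lay between 0.0513 and 0.175. Without WT library 3 only Ighv7-1 passed (0.0717% of all genes), and without WT library 1 there were 4 segments (0.301%). Without K74R library 1 there were 13 (0.981%) and without WT library 2 there were 26 (4.49%), so the number of segments moved with the number over all genes. The direction of the 6 was the same in all 16 alternatives run. Since the genotypes do not overlap for any of the 6, leaving out a library cannot turn it, so those fits do not check the direction.

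Segments next in order of p did not pass the threshold, and are given as values. Ighv6-6 was at 1.42, 2.32 and 1.40 CPM in WT against 3.69, 5.30 and 5.80 in K74R (adjusted p = 0.0590). Ighv1-78 was at 1.68, 1.94 and 1.84 against 4.94, 3.82 and 3.62 CPM (adjusted p = 0.0711), and neither overlapped. Igkv13-84 was at 1.16, 0.627 and 1.40 CPM in WT against 13.6, 5.63 and 2.66 in K74R (adjusted p = 0.0791), with a wide spread among its K74R libraries. Igkv6-25 (0.580, 1.69 and 1.25 against 2.77, 5.77 and 4.51 CPM), Igkv8-21 (0.838, 1.63 and 0.589 against 2.24, 4.36 and 5.33 CPM) and Igkv4-68 (1.61, 0.941 and 1.55 against 2.04, 7.11 and 7.58 CPM) were likewise higher in every K74R library, with adjusted p of 0.0830, 0.0909 and 0.0972. On the other side, Igkv3-2 was at 5.41, 3.45 and 5.595 CPM in WT against 2.04, 2.48 and 2.80 in K74R (adjusted p = 0.129). Igkv6-17 was at 4.51, 4.203 and 4.42 against 3.16, 2.21 and 1.98 CPM (adjusted p = 0.142). Of the heavy chain segments lower in K74R, Ighv1-34 had the smallest p but few counts, with 1.68, 0.941 and 0.736 CPM in WT against 0.395, 0.268 and 0 in K74R (adjusted p = 0.154). Ighv1-19 was next, with 6.19, 4.83 and 5.45 against 2.44, 3.89 and 3.48 CPM (adjusted p = 0.164). Igkv4-86 was at 3.80, 1.07 and 2.50 CPM in WT against 1.12, 0.670 and 0.956 in K74R (adjusted p = 0.179), where WT library 2 lay among the K74R values.

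To separate usage from amount, the test was repeated with each segment scaled by the summed count of its own locus in the library, all other genes as before. The median log2 fold change of the 141 segments was then 0.05, and 75 of them lay above 0. Both follow from the scaling, which removes the difference in the locus sum. A near-even split between larger and smaller shares follows from it too. As many passed as before, 6 (4.26%, against 0.773% of all genes in this fit). Igkv4-59 (log2 fold change 1.12), Ighv1-80 (1.05) and Ighv13-2 (2.02) took a larger share of their locus in K74R, where 0.504% of all genes were called higher. Igkv4-57-1 (-2.34), Igkv4-57 (-2.21) and Ighv1-19 (-1.19) took a smaller share, where 0.269% of all genes were called lower. Ighv7-1 kept its direction (1.78) with an adjusted p of 0.0767. At an unadjusted p under 0.05 there were 46, against 17.7% of all genes: 22 segments had a larger share and 24 a smaller one, where 9.66% and 8.07% of all genes were higher and lower.

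By family, Ighv1, known as J558, was by far the largest and held 45.7%, 51.3% and 43.9% of heavy chain counts in WT against 54.5%, 49.0% and 49.1% in K74R, from 43 segments. Its share overlapped between the genotypes, while its summed level did not: 91.0, 102.6 and 87.3 CPM in WT against 126, 147 and 136 in K74R. Ighv5 followed, with 14.99%, 11.1% and 15.9% in WT and 7.36%, 15.9% and 14.8% in K74R, and Ighv3 with 12.6%, 6.68% and 12.9% against 6.56%, 9.55% and 8.61%. Shares of 13 of the 15 heavy chain families overlapped. The 2 others were Ighv13, higher in K74R (0.291%, 0.314% and 0.148% against 0.855%, 1.23% and 1.04%), which is the segment Ighv13-2 alone, and Ighv8, lower in K74R (4.07%, 4.24% and 3.67% against 3.28%, 3.06% and 3.01%).

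Kappa families were spread more evenly. Igkv4 was the largest by number of segments, 21, and its share was nearly the same in both genotypes, 16.6% ± 1.5 (SD, n = 3) in WT and 16.4% ± 1.3 in K74R, although the 3 segments above belong to it. Igkv10 held 15.2%, 8.64% and 14.7% in WT and 10.7%, 8.44% and 8.06% in K74R, and Igkv1 held 11.0%, 13.3% and 9.25% against 11.4%, 17.4% and 17.7%. For 12 of the 16 kappa families the shares overlapped. Igkv16, a single segment, was higher in K74R (1.47%, 1.44% and 1.44% against 1.65%, 3.54% and 3.10%), as was Igkv9 (1.54%, 1.81% and 1.55% against 2.099%, 2.26% and 2.66%). Igkv3 was lower (8.81%, 7.86% and 9.53% against 5.16%, 7.06% and 7.39%), and so was Igkv5 (9.68%, 6.83% and 8.81% against 6.67%, 5.45% and 4.58%). In CPM, 6 heavy chain and 4 kappa families were higher in every K74R library, and none was lower in every one. Of all tested genes, 11.8% were higher and 11.1% lower in every K74R library. Family shares without overlap were about as frequent as that, with 1 higher and 1 lower of 15 heavy chain families, and 2 and 2 of 16 kappa families. Shares of families are described here without a test.

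**Figure D3:**
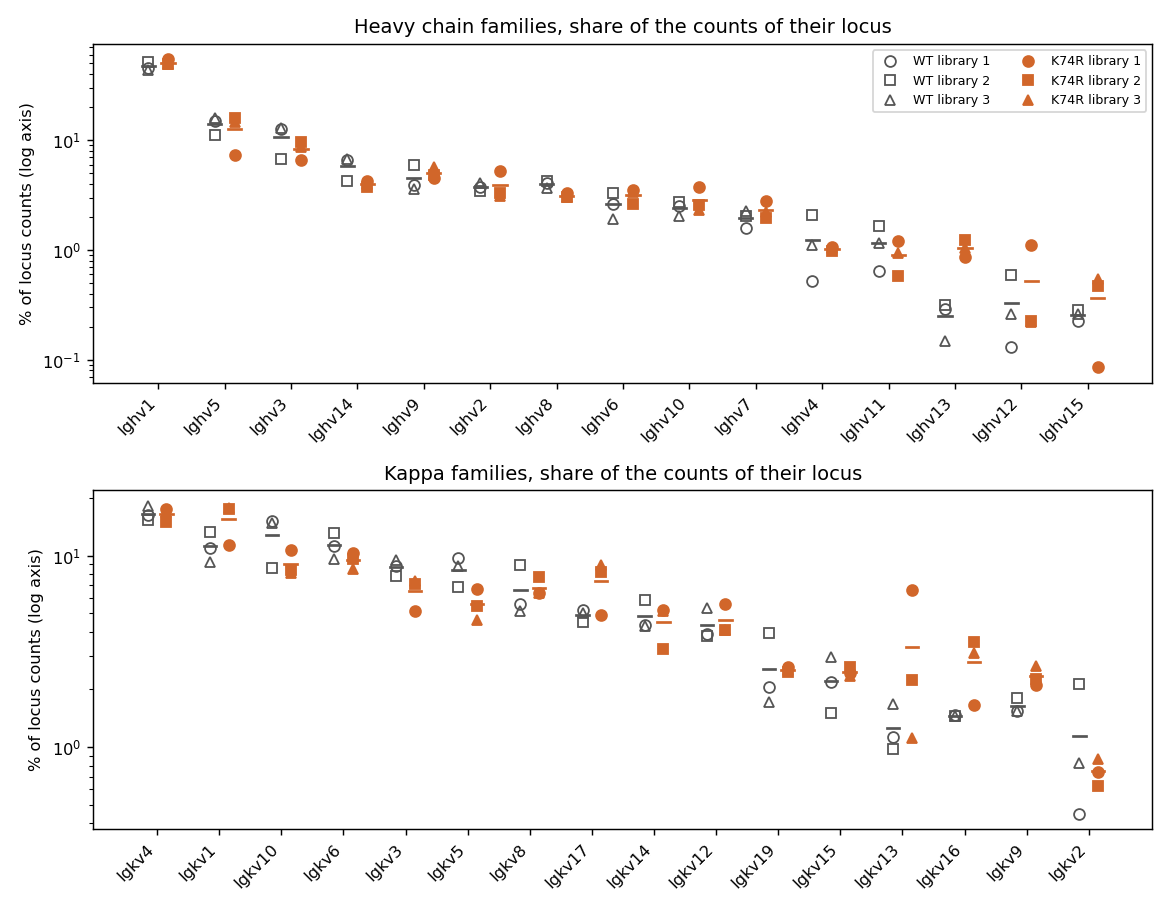
Share of each V family in the counts of its locus, in percent on a log axis, for the 15 heavy chain families (upper panel) and 16 kappa families (lower panel), by library (open gray, WT; filled orange, K74R; horizontal bars, means of 3). Ighv1 holds about as much as all other heavy chain families together, and most families overlap between the genotypes.

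Shares by position differed at the kappa locus and overlapped at the heavy chain locus. The kappa segments were divided by order into 26 nearest to J, 25 in the middle and 25 farthest away. The nearest group, from Igkv3-1, which lies 19.4 kb from the J segments, to Igkv12-44, held 34.0%, 37.4% and 33.1% of kappa counts in WT against 27.3%, 29.6% and 27.3% in K74R. The middle group held 21.4%, 21.4% and 23.5% in WT and 29.8%, 25.6% and 25.4% in K74R. Neither group overlapped between the genotypes, one being lower and the other higher in K74R, while the far group, ending at Igkv1-135, overlapped.

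Kappa segments also differ in orientation. Those on the strand of the J segments are joined by deletion of the DNA between, and those on the other strand by inversion. The 29 segments on the plus strand, that of the J segments, held 36.8%, 37.6% and 37.4% of kappa counts in WT against 39.97%, 43.0% and 45.3% in K74R, without overlap. These 29 lie mostly at the ends of the locus and the other 47 mostly in its middle, so that strand and position go together. For the heavy chain locus, the group nearest to J held 32.5%, 29.3% and 35.6% in WT and 27.4%, 31.9% and 33.0% in K74R, and the middle and far groups overlapped as well. These shares were not tested.

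Segments at the ends of the loci, and Ighv11-2, differed in level. Ighv5-2, known as 81X and favored in early B lineage cells, is the heavy chain member nearest to J, and was at 0.258, 0.439 and 0.221 CPM in WT against 0.264, 1.01 and 0.956 in K74R. Ighv1-85, the farthest, was at 0.709, 1.57 and 0.515 against 1.25, 1.21 and 1.16 CPM. Ighv11-2, a segment known from B-1 cells, was at 1.29, 3.32 and 2.28 against 2.77, 1.74 and 2.59 CPM (log2 fold change 0.04 ± 0.37, adjusted p = 0.966). At the kappa locus, Igkv3-1, the nearest to J, was at 0.264 to 0.883 CPM, and Igkv1-135, the farthest, at 5.61, 7.65 and 4.64 CPM in WT against 7.25, 9.92 and 9.83 in K74R (adjusted p = 0.215). Each of these 5 overlapped between the genotypes.

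No single segment dominated. Between 14 and 19 segments were needed to make up 50% of a locus in any of the 6 libraries, and the effective number of segments (the exponential of the Shannon entropy of their shares) ran from 53.6 to 61.0 for the heavy chain and from 45.4 to 53.1 for kappa. Per kilobase of exon, Ighv1-26 was the highest of the heavy chain segments at 37.5 CPM per kb over the 6 libraries, followed by Ighv3-6 at 33.2 and Ighv5-16 at 26.9. Igkv10-96 was the highest of the kappa segments at 53.8 CPM per kb, followed by Igkv17-127 at 28.9 and Igkv1-117 at 28.4. Igkv10-96 led the kappa locus in 4 libraries, with 13.5%, 6.58% and 12.1% of its counts in WT and 5.98% in K74R library 1. Igkv1-88 led in K74R library 2 with 6.62%, and Igkv17-127 in K74R library 3 with 7.22%. Among heavy chain segments Ighv3-8 led in WT libraries 1 and 3, Ighv3-6 in WT library 2 and K74R libraries 2 and 3, and Ighv1-26 in K74R library 1 with 10.01%.

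Libraries of one genotype differed from each other in the segments they used, and in the same way at both loci. Over log2 CPM of the 85 heavy chain segments, WT libraries 1 and 3 had a Pearson's r of 0.87, and K74R libraries 2 and 3 of 0.92. Over the 76 kappa segments these 2 pairs had an r of 0.92 and 0.90. The other 13 of the 15 pairs lay between 0.58 and 0.73 for the heavy chain and between 0.55 and 0.76 for kappa. Among these, heavy chain values were 0.68 to 0.73 within a genotype and 0.58 to 0.68 across genotypes. Kappa values were 0.58 to 0.76 within a genotype and 0.55 to 0.72 across genotypes. These correlations are across segments, which share their libraries' depth and are not replicates. Neither pair was a single library given again under another name, since over the other genes the chi-square per degree of freedom was 16.5 for WT libraries 1 and 3 and 7.48 for K74R libraries 2 and 3. Over the segments it was only 2.60 (heavy chain) and 1.67 (kappa) for the WT pair. For the K74R pair it was 1.58 and 3.32, while in all other pairs it was at least 7.26 and 9.31. Whether the libraries of a pair share animals or material, the labels do not say.

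**Figure D4:**
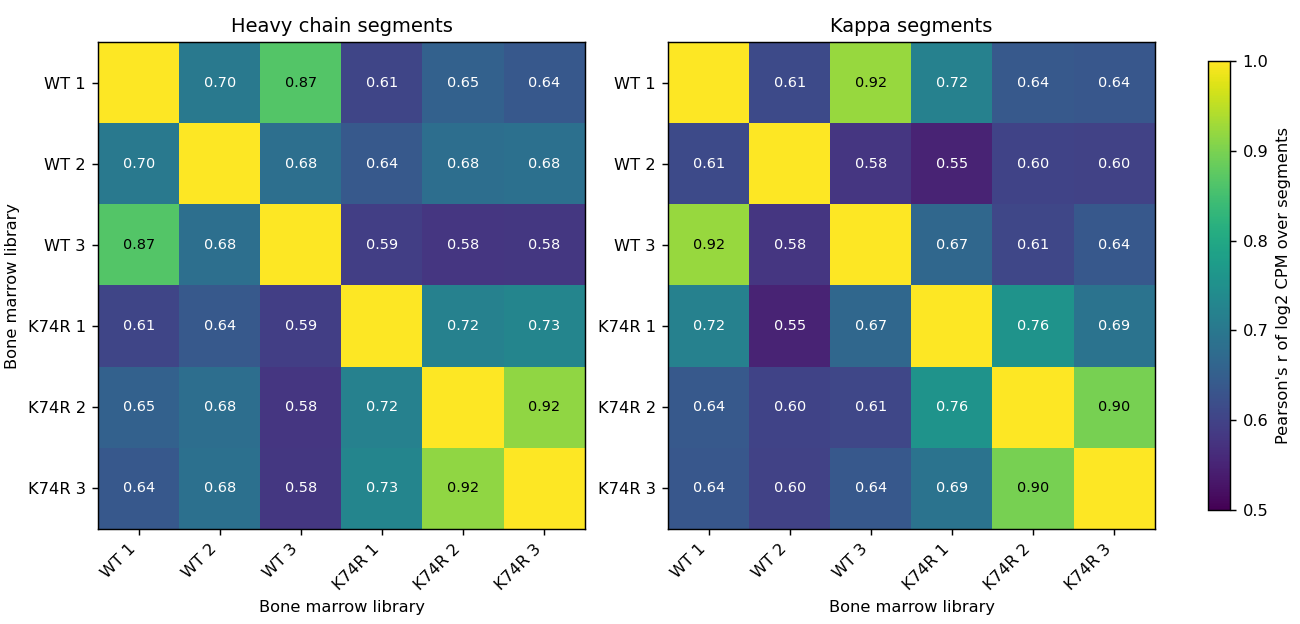
Pearson's r of log2 CPM between each pair of the 6 bone marrow libraries, over the 85 heavy chain segments (left) and the 76 kappa segments (right). WT libraries 1 and 3 and K74R libraries 2 and 3 form the 2 closest pairs at both loci, while WT library 2 and K74R library 1 resemble no other library as closely.

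The segments behind this pattern show it in their single values. WT library 2 lay at least 2-fold above or below both other WT libraries for 33 of the 141 tested segments, and K74R library 1 for 30 against its own genotype, while the 4 other libraries did so for 4 to 9. Over 15011 genes with at least 10 counts in 3 or more of the libraries, the 3 WT libraries did so for 4.23%, 2.76% and 1.83% and the 3 K74R libraries for 2.64%, 1.18% and 1.19%. Ighv3-8 was at 14.7, 1.32 and 15.2 CPM in WT against 4.61, 3.96 and 3.21 in K74R. Igkv1-88 was at 2.00, 8.09 and 1.25 CPM in WT against 2.83, 21.2 and 17.1 in K74R. Igkv17-127 was at 5.99, 5.08 and 5.74 in WT and 5.998 in K74R library 1, but at 19.5 and 20.01 CPM in K74R libraries 2 and 3. For Ighv3-8, WT library 2 lay below all K74R libraries and the 2 other WT libraries above them (adjusted p = 0.305), and for Igkv1-88, K74R library 1 lay among the WT values (adjusted p = 0.245).

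Some segments were read mainly in 1 library. Igkv3-3 was at 3.39 CPM in WT library 2, which held 94.0% of its summed level, and at 0 to 0.147 CPM in the other 5. Igkv4-80 was at 5.998 CPM in K74R library 1 and at 0.368 to 0.872 elsewhere, and Igkv2-112 at 3.76 CPM in WT library 2 and at 0.147 to 0.683 elsewhere. Ighv3-4 was at 2.50 CPM in WT library 3, 59.0% of its summed level. None of these 4 passed the filter on low counts, so they were not tested.

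The other genes of antibody assembly lay mostly on the same side without passing the threshold. At an unadjusted p under 0.05, 9.8% of all genes were higher in K74R. Of 7 genes of V(D)J recombination none passed the adjusted threshold and 4 were higher at the unadjusted one: Rag1, a subunit of the recombinase that cuts at the segments, was at 60.9, 109 and 40.7 CPM in WT against 149, 194 and 222 in K74R (adjusted p = 0.0798), and Dntt, which adds bases at the joints, at 28.3, 47.1 and 31.3 against 49.8, 63.2 and 65.7 CPM (adjusted p = 0.107). Of the 4 genes of the surrogate light chain, which pairs with the new heavy chain before a light chain exists, none passed and 3 were higher at an unadjusted p under 0.05. Of 11 receptor partners and transcription factors none passed and all 11 were higher at an unadjusted p under 0.05. Pax5, the factor that keeps B cell identity, was at 130, 193 and 95.9 CPM in WT against 203, 281 and 307 in K74R (adjusted p = 0.115). Of 7 tested plasma cell genes none passed, and 2 were higher at an unadjusted p under 0.05. The 3 lambda segments did not pass and had a median log2 fold change of -0.10.

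Of 11 tested constant genes 1 rose and 1 fell, where 0.511% and 0.262% of all genes did. Igha, the constant region of IgA, rose from 132, 96.5 and 126 CPM to 187, 303 and 261 (log2 fold change 1.08 ± 0.17, adjusted p = 0.0337), and Ighg1, that of IgG1, fell from 58.9, 76.2 and 65.6 CPM to 31.0, 23.1 and 22.8 (log2 fold change -1.38 ± 0.14, adjusted p = 0.00446). Plasma cell markers (Jchain, Mzb1, Sdc1, Tnfrsf17) summed to 96.1, 118 and 121 CPM in WT and to 134, 192 and 138 in K74R. Most of this sum was Jchain, at 89.0, 103 and 110 CPM against 121, 170 and 122. Of the 7 tested plasma cell genes, Jchain was higher and Xbp1 lower in every K74R library, and the others overlapped. Xbp1 was at 115, 110 and 111 CPM in WT against 103, 103 and 99.4 in K74R (adjusted p = 0.303). Cd79a was at 79.7, 114.1 and 57.6 CPM in WT against 115.9, 154 and 162 in K74R (adjusted p = 0.133), and Ms4a1, a surface protein of B cells, at 56.8, 77.3 and 45.8 against 90.4, 103 and 93.7 CPM (adjusted p = 0.103). Among markers of other marrow cells, the summed neutrophil markers were lower in K74R (10538 to 11388 CPM against 12901 to 13956), the summed T cell markers were slightly higher (8.98 to 13.5 CPM against 7.59 to 8.70), and the stromal and erythroid sums overlapped. None of the 4 neutrophil and 4 T cell markers passed the adjusted threshold. At an unadjusted p under 0.05, 3 neutrophil markers were lower, where 7.99% of all genes were, and 0 T cell markers differed. How much of the difference in segment levels goes with any of these levels was not tested.

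In tumors, which the rule did not use, the same segments were nearly silent and the order of the genotypes was the opposite. The 85 heavy chain segments had 39, 19 and 24 counts in the WT tumors, against 2, 3 and 3 in the K74R tumors, or 2.12, 0.999 and 1.44 CPM against 0.107, 0.187 and 0.179. From the pooled 82 and 8 counts, relative to library totals, the WT level was 9.75 times that of K74R (exact 95% interval 4.72 to 23.3, counting error only). The 76 kappa segments had 37, 48 and 37 counts in WT tumors, against 9, 6 and 24 in K74R tumors, a ratio of 2.97 (2.06 to 4.38). Every K74R tumor lay below every WT tumor at both loci, although the heavy chain counts of K74R tumors did not exceed the 3 counts that an observed 0 allows.

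**Figure D5:**
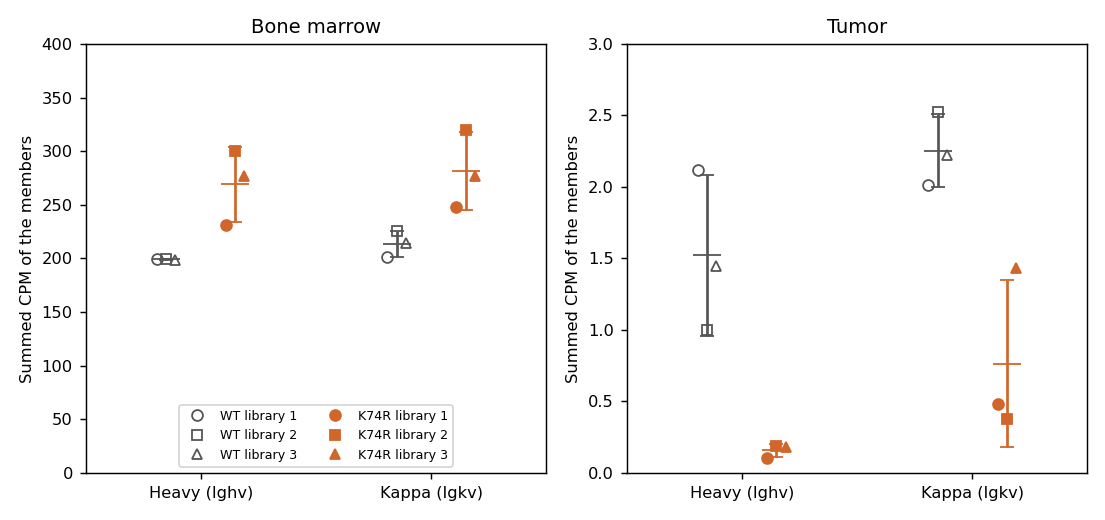
Summed CPM of the 85 heavy chain and 76 kappa segments in bone marrow (left) and tumors (right), by library (open gray, WT; filled orange, K74R), with the mean and SD of 3 libraries. K74R libraries lie above WT in bone marrow and below WT in tumors, and the 2 panels have different scales.

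Tumor counts came from few segments, and different ones in each tumor. Ighv3-8 had 12 counts in WT tumor 1 and 0 in the other 5, and Ighv1-69 had 10 in WT tumor 1 and 0 elsewhere. Ighv1-82 had 4, 9 and 8 counts in the WT tumors, against 0 in each K74R tumor. Igkv6-23 had 14, 18 and 3 counts in WT, against 1, 0 and 0 in K74R. Of the 24 kappa counts of K74R tumor 3, 10 came from Igkv17-121. None of the 161 segments passed the filter on low counts in tumors, so none was tested there (6 of 14779 genes, 0.0406%, passed in that tissue). Cd79a was at 7.13, 5.73 and 5.48 CPM in WT tumors and at 3.04, 6.37 and 2.21 in K74R tumors, which overlapped. Lower in every K74R tumor than in every WT tumor were Ighm (4.12 to 8.58 against 16.9 to 19.3 CPM), Igkc (0.746 to 1.44 against 3.37 to 3.85), Jchain, the chain that links IgA and IgM units (0.312 to 0.657 against 0.762 to 1.31), and the summed macrophage markers (163 to 262 against 313 to 342). Ighm, Igkc and Jchain did not pass edgeR's test in tumors (adjusted p = 0.194, 0.194 and 0.368). How many of all genes lay without overlap in tumors was not computed. The part of any of these genes or markers in the difference in segment counts was not tested.

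A model of all 16 libraries with an interaction of genotype and tissue was fitted, but its calls on segments are not read here. The 153 that entered it passed its filter through their bone marrow counts, and 96 of them had no count in any tumor. The opposite order of the summed levels in the 2 tissues is therefore given without a test.

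In MSC libraries the heavy chain segments had no count in either WT library, against 11 and 10 in K74R, and the kappa segments 0 and 4 in WT against 7 and 6 in K74R, and none passed the filter on low counts there (3.34% of 14475 genes were called). A count of 0 allows up to 3 counts, or 0.173 and 0.188 CPM in these 2 WT libraries.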

How the data were processed

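Per the labels' protocols, TRIzol was used for RNA and the KAPA mRNA HyperPrep kit for libraries. The authors deposited a table of raw counts per gene for the 16 libraries. Trimmomatic 0.38, HISAT2 2.1.0, featureCounts 1.6.0, FastQC and MultiQC, with the build GRCm38, are named in the submitters' processing notes. Which annotation release was used, and how strand and multiply aligned reads were handled, the sources used here do not state. Reads of antisense or overlapping genes therefore cannot be told apart, and reads of close copies may be shared out or lost.

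Groups came from the genotype and tissue labels. Symbols, biotypes, positions and transcripts came from GENCODE M21, to which all 55536 identifiers matched. CPM uses the library total times its trimmed-mean factor. K74R was tested against WT in each tissue alone with R 4.3.3 and edgeR 4.0.16 (filterByExpr, quasi-likelihood test, Benjamini-Hochberg over all genes tested, threshold 0.05). Its median fold changes were checked on counts simulated for each gene independently. That check does not cover the error rate for segments, whose levels go together within libraries. Alternatives used DESeq2 1.42.0 and limma-voom (limma 3.58.1), other scalings and filters, a model of all 16 libraries, the replicate number as a block, and single libraries left out. Intervals and floors of 3 counts cover counting error only.

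The segments, lists and alternatives were chosen with earlier results of these data known. Segments were named by rule: those past the threshold, the 8 of highest level per kb in each locus, the 5 of smallest p per locus and direction with an average log2 CPM of at least 0, the 4 most concentrated in 1 library, the ends of each locus, those at the count minimum, Ighv5-2 and Ighv11-2, and the 4 highest per locus in tumors. Ighv1-34 and Igkv4-58 were added after their values were seen. Not every segment the rule took is given with values. The sum of B lineage markers is not reported here.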

Additional observations from a re-analysis of the deposited data

Results flagged for a closer look

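The genotypes stood in opposite order in bone marrow and in tumors, with no overlap between them in either. For the summed heavy chain segments the log2 ratio of K74R over WT mean CPM was 0.43 in bone marrow and -3.27 in tumors. For the summed kappa segments it was 0.40 in bone marrow and -1.56 in tumors. The difference between the tissues was not tested on these sums, and the tumor values rest on 8 heavy chain and 39 kappa counts in K74R.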

How the results depend on the processing

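Against 6 segments called in bone marrow (0.773% of all genes), DESeq2 called 22 (3.58%) and the edgeR fit with no filter on low counts 44 (3.07%). The model of all 16 libraries called 1 (Igkv4-57-1, 0.33%) and limma-voom 4 (0.538%). The 3 other scalings (0.558% to 0.773%) and the filter of at least 1 CPM (0.762%) called 6 each. With single libraries left out the count ran from 0 to 26 (0.0717% to 4.49% of all genes). With no filter, 3 of 58 segments were called in tumors (Ighv1-82, Igkv6-23 and Igkv8-30, where 2.73% of all genes were called). The other tumor fits called 0, but tested only 0 or 1 segment each, apart from the model of all 16 libraries. Its 153 segments passed the filter through their bone marrow counts. No segment was called in MSC under any alternative run, most of which tested none there. Scaling by locus was not run for tumor or MSC, where counts were too few.

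The numbers 1 to 3 are shared by the labels of both genotypes, and whether they pair the bone marrow libraries is not known. Same-numbered libraries had correlations of deviations from their genotype's mean of 0.27, 0.13 and -0.10 over all genes. Libraries with unlike numbers had correlations of -0.26 to 0.18. Deviations from a mean of 3 libraries depend on each other, so these values cannot decide on pairing. With the replicate number as a block 8 segments were called (0.908% of all genes), adding Ighv1-53 and Igkv6-25.

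The log2 ratio of the locus sums ran from 0.34 to 0.53 (heavy chain) and from 0.29 to 0.48 (kappa) over 11 alternatives each. The genotype difference in each of 31 family shares was recomputed with other count minima and with single libraries left out. All 246 values stayed within 1 SD of the main ones. Leaving out 1 of 3 libraries cannot move the difference that far, so those values check nothing. Of 734 log2 fold changes of 46 named segments, 720 kept their sign. Scaled by locus, Ighv5-16 (-0.19), Ighv1-85 (-0.062), Ighv1-82 (-0.14), Igkv19-93 (-0.030), Igkv6-23 (-0.19), Igkv17-121 (-0.12) and Ighv11-2 (-0.36) turned negative, none past the threshold, because this scaling removes the higher locus sum. With single libraries left out, those that changed sign ran from -0.14 to 0.72 (Ighv5-16), -0.041 to 1.73 (Ighv12-3), -0.26 to 0.14 (Ighv1-69), -0.054 to 0.48 (Igkv6-23) and -0.25 to 0.41 (Ighv11-2). The 20 segments left untested had 30 to 130 counts in all.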

Other observations

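Segments annotated as pseudogenes were read too. Heavy chain pseudogenes held 80, 106 and 56 counts in WT bone marrow against 101, 111 and 95 in K74R, and kappa pseudogenes 27, 20 and 21 against 21, 25 and 31. Both overlapped between the genotypes. The 54 segments under the count minimum held together 23, 44 and 11 heavy chain counts in WT and 36, 46 and 56 in K74R, and 44, 65 and 32 kappa counts against 59, 62 and 49.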
